A study of Mus musculus with 8 samples.

Results

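Tumor necrosis factor (TNF) and nuclear factor kappa B (NFkB) genes were followed in pancreas RNA of lean and obese mice. They are 10 genes taken by name, namely the ligand Tnf, the receptors Tnfrsf1a and Tnfrsf1b, the NFkB subunits Nfkb1, Nfkb2 and Relb, the feedback inhibitors Nfkbia and Tnfaip3, and the targets Birc3 and Icam1. All 10 were found among the 15047 gene symbols of the deposited values. The RNA came from the pancreas of 8 male mice. LFD mice (n = 3) and HFD mice (n = 3) were C57BL/6 WT animals that received a low-fat or a high-fat diet for 10 weeks from the age of 4 weeks, with 60% of the calories of the HFD coming from fat. The ob/ob mice (n = 2) were C57BL/6J animals that lack leptin in every tissue and ate standard chow from the same age, so that genotype and diet cannot be told apart against LFD. Each animal is described in the study as carrying an orthotopic transplant of mT organoids, grown from a mouse pancreatic tumor, which the sample labels do not mention. Lean controls thus shared the transplant, and the RNA is a mixture of host pancreas, transplant and infiltrating cells.

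TNF is a cytokine made mainly by macrophages and other leukocytes. It binds TNFR1 (Tnfrsf1a), which most cells carry, and TNFR2 (Tnfrsf1b), which is found mainly on leukocytes and endothelium. Both receptors activate the IkB kinases, which release p50 and RelA from the inhibitor IkB-alpha (Nfkbia), while an alternative route turns the p100 precursor (Nfkb2) into p52, the partner of RelB. NFkB then induces its own inhibitors, several of its subunits, survival genes and adhesion molecules, so that the transcripts of these genes are often read as an output of the pathway. In pancreatic tissue, this pathway is known for its part in pancreatitis and in the growth of ductal tumors.

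The values are rlog values of DESeq2, which are on a log2 scale, corrected for library size, and shrunk toward the mean of a gene where reads are few. Depth was not given and counts were not used, so the spread between mice is the error shown. The medians of the mice lay between 7.09 and 7.25, and pairs of mice correlated with r from 0.884 to 0.982 across genes. Pancreas identity was clear in every mouse, since all 20 acinar cell markers were in the table and their mean rlog value was at least 14.7. This mean was between 18.5 and 18.9 in LFD mice, 18.8, 16.6 and 14.7 in the HFD mice by replicate number, and 18.1 and 15.04 in the ob/ob mice. HFD replicate 3 and ob/ob replicate 2 thus stood apart by low acinar transcripts, while HFD replicate 1 was within the LFD range. In bulk tissue, fewer cells of a type and less RNA per cell cannot be told apart.

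To see what the genes share in their DNA, promoters were read from RefSeq on GRCm38.p6, the assembly named by the authors, for 8 of the 10 genes. Nfkb1 and Relb had no entry. The 250 bases before each start were searched on both strands for the kappa B consensus, the DNA element that NFkB dimers bind (3 G, a purine, 2 bases of any kind, 2 pyrimidines and 2 C). At least 1 match was found for Nfkb2, Nfkbia and Tnfaip3, which is 3 of 8 genes, whereas 8.23% of the 27025 genes with a promoter in the same source had one. The element is nearly symmetric, so a site can match on both strands or in overlapping registers. Below, the matches are in capitals, in lines that are shown because they are the sites held by genes whose values follow. Nfkbia is on the minus strand at chr12:55492648-55492897, directly outside the annotated gene, with its match 29 to 20 bases before the start. Nfkb2 is on the plus strand, and its lines are chr19:46304689-46304718 and chr19:46305695-46305724, where the matches lie 39 to 29 and 225 to 216 bases before 2 of its 3 listed starts, in both cases within an annotated Nfkb2 exon in Gencode M21, and 2 further Nfkb2 matches are not shown. Tnfaip3 is on the minus strand at chr10:19015411-19015440 and chr10:19015516-19015545, in an annotated intron. Its matches lie 12 to 3 and 125 to 116 bases before 1 of its 2 listed starts, and the other start had no match.
Nfkbia: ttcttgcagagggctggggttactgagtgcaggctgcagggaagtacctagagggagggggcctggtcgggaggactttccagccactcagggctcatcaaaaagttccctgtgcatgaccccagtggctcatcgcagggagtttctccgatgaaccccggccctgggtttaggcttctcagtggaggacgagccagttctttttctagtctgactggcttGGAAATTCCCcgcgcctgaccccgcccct
Nfkb2, the first start: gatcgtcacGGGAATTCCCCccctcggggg
Nfkb2, the third start: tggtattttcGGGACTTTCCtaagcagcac
Tnfaip3, near the start: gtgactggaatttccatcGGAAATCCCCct
Tnfaip3, farther upstream: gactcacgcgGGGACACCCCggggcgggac
With the looser pattern GGGNNNNNCC, all 8 genes had a match, as did 48.7% of all genes. A match of letters is a description and not a measured binding site.

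The ligand Tnf (chromosome 17 of GRCm38, 35199381 to 35202007, Gencode M21) had rlog values of 4.801, 4.88 and 3.77 in LFD replicates 1 to 3, of 5.08, 6.54 and 5.54 in the HFD mice, and of 5.24 and 5.55 in the ob/ob mice, in the order of the replicate numbers that all values below follow. None of the 5 obese mice overlapped with LFD, with LFD replicate 3 the lowest and HFD replicate 2 the highest. The log2 difference was 1.23 (standard error 0.45, unadjusted p = 0.0226, adjusted p = 0.212 with limma) for HFD against LFD and 0.91 (standard error 0.50, adjusted p = 0.332 with limma) for ob/ob against LFD, which did not pass the threshold of 0.05 on adjusted p-values. The values of Tnf lie below the median of all genes, 7.18, in a range where rlog shrinks differences.

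Among the receptors, Tnfrsf1a (chromosome 6, 125349362 to 125362484) carries the death domain that starts the TNF signal. Its rlog values were 8.001, 8.01 and 8.06 in LFD, 7.81, 8.44 and 8.71 in HFD, and 8.66 and 8.54 in ob/ob. Both ob/ob mice exceeded the narrow LFD range, whereas HFD replicate 1 lay under it, and the differences were 0.29 (standard error 0.23) for HFD and 0.58 (standard error 0.26) for ob/ob. Tnfrsf1b (chromosome 4, 145213463 to 145246870), the receptor without a death domain, was at 7.42, 7.24 and 6.78 in LFD, 7.13, 8.20 and 8.58 in HFD, and 8.04 and 8.84 in ob/ob. Again both ob/ob mice and HFD replicates 2 and 3 were above LFD, and HFD replicate 1 was inside the LFD range. For Tnfrsf1b the difference was 1.29 (standard error 0.44, unadjusted p = 0.0166, adjusted p = 0.216 with limma) in ob/ob, the largest of the 10 genes in that comparison, and 0.82 (standard error 0.39, adjusted p = 0.278 with limma) in HFD.

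Of the NFkB subunits, Nfkb1 (chromosome 3, 135584655 to 135691547) encodes p105, the precursor of p50. It was at 9.13, 9.12 and 8.51 in LFD, 8.77, 9.41 and 9.57 in HFD, and 9.14 and 9.67 in ob/ob, with differences of 0.33 (standard error 0.28) and 0.49 (standard error 0.31). Only ob/ob mice were all above LFD, and ob/ob replicate 1 exceeded LFD replicate 1 by little. Nfkb2 (chromosome 19, 46304320 to 46312385), whose sites are shown above, was at 7.10, 7.56 and 6.90 in LFD, 7.08, 8.37 and 8.41 in HFD, and 7.54 and 8.38 in ob/ob. Relb (chromosome 7, 19606217 to 19629438), the partner of p52, was at 6.46, 6.99 and 6.21 in LFD, 6.16, 7.70 and 7.62 in HFD, and 6.84 and 7.52 in ob/ob. For these 2 genes of the alternative route, HFD replicates 2 and 3 and ob/ob replicate 2 lay above LFD, while HFD replicate 1 and ob/ob replicate 1 did not exceed LFD replicate 2. The differences were 0.77 (standard error 0.40) and 0.77 (standard error 0.45) for Nfkb2 and 0.61 (standard error 0.44) and 0.63 (standard error 0.49) for Relb, in HFD and ob/ob, with adjusted p-values of 0.308, 0.347, 0.439 and 0.471 with limma.

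The feedback inhibitors differed from each other in size. Nfkbia (chromosome 12, 55489410 to 55492647), which holds NFkB in the cytoplasm, was at 8.46, 8.54 and 8.38 in LFD, 8.03, 8.88 and 8.45 in HFD, and 8.57 and 8.85 in ob/ob. HFD mice lay on both sides of the LFD mice, and the HFD difference was -0.01 (95% interval -0.52 to 0.51). In ob/ob both mice were above LFD, by 0.25 on average (95% interval -0.32 to 0.82). Tnfaip3 (chromosome 10, 19000910 to 19015657) encodes A20, an enzyme that edits ubiquitin chains and shuts the signal off. It had rlog values of 6.80, 7.09 and 6.25 in LFD, 7.23, 8.503 and 8.77 in HFD, and 7.21 and 8.35 in ob/ob. No obese mouse overlapped with LFD, although HFD replicate 1 and ob/ob replicate 1 were close to LFD replicate 2. With 1.46 (95% interval 0.42 to 2.50, standard error 0.46, unadjusted p = 0.0117, adjusted p = 0.192 with limma), Tnfaip3 had the largest HFD difference of the 10 genes, and its ob/ob difference was 1.07 (95% interval -0.10 to 2.23, adjusted p = 0.286 with limma). Whether Tnfaip3 and Nfkbia differed from each other in their response was not tested.

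Both targets had higher means in the obese mice, without passing the adjusted threshold. Birc3 (chromosome 9, 7848699 to 7873186) encodes cIAP2, a ubiquitin ligase that protects cells from TNF-induced death. Its rlog values were 7.76, 8.19 and 7.91 in LFD, 8.25, 8.69 and 8.74 in HFD, and 8.70 and 8.57 in ob/ob, and no obese mouse overlapped with LFD. It had differences of 0.61 (standard error 0.20, unadjusted p = 0.0147, adjusted p = 0.195 with limma) in HFD and 0.68 (standard error 0.22, unadjusted p = 0.0142, adjusted p = 0.210 with limma) in ob/ob. Icam1 (chromosome 9, 21015985 to 21028817), the adhesion molecule that leukocyte integrins bind, was at 7.15, 7.59 and 6.69 in LFD, 7.28, 8.53 and 8.18 in HFD, and 7.80 and 8.15 in ob/ob. Only HFD replicate 1 of the obese mice was within the LFD range for Icam1. The differences were 0.86 (standard error 0.35, unadjusted p = 0.0388, adjusted p = 0.235 with limma) in HFD and 0.84 (standard error 0.40, adjusted p = 0.283 with limma) in ob/ob.

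**Figure D1:**
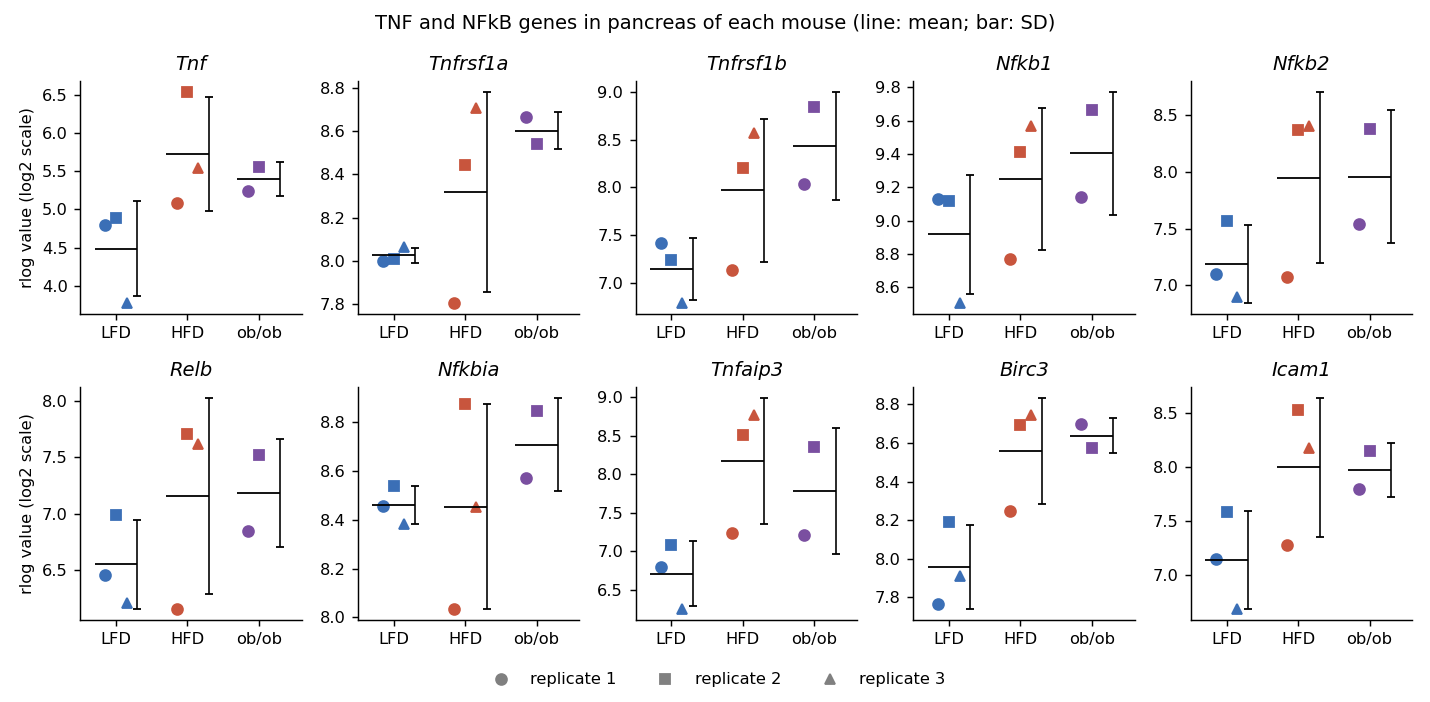
rlog values (log2 scale, y axis, own range in each panel) of the 10 TNF and NFkB genes in LFD (n = 3), HFD (n = 3) and ob/ob (n = 2) mice, with symbols for the replicate number, lines for means and bars for SD. HFD replicate 1, the circle in the middle column, was the lowest of the 5 obese mice for 9 of the 10 genes.

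Taking the 10 genes side by side, 9 had a higher mean in HFD than in LFD and 10 in ob/ob than in LFD, both against the same LFD mice, while 52.4% and 53.1% of all genes were higher. The median log2 difference was 0.69 in HFD and 0.73 in ob/ob, beside 0.03 and 0.04 over all genes. With limma, 0 of the 10 had an adjusted p-value under 0.05 in any comparison, as did 0% of all genes in each. Before adjustment, 4 genes (Tnf, Tnfaip3, Birc3 and Icam1) had a p-value under 0.05 in HFD, where 11.5% of all genes were called higher in this way, and 2 genes (Tnfrsf1b and Birc3) in ob/ob, where it was 11.6%. All HFD mice were above all LFD mice for 3 genes (background 12.9%), and both ob/ob mice for 8 genes (background 24.1%). For the mean of both obese models against LFD, 5 genes had an unadjusted p-value under 0.05 (background 14.5%) and 3 did not overlap (background 9.4%), with differences from 0.12 for Nfkbia to 1.26 for Tnfaip3. The smallest adjusted p-value in that comparison was 0.113, for Birc3.

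**Figure D2:**
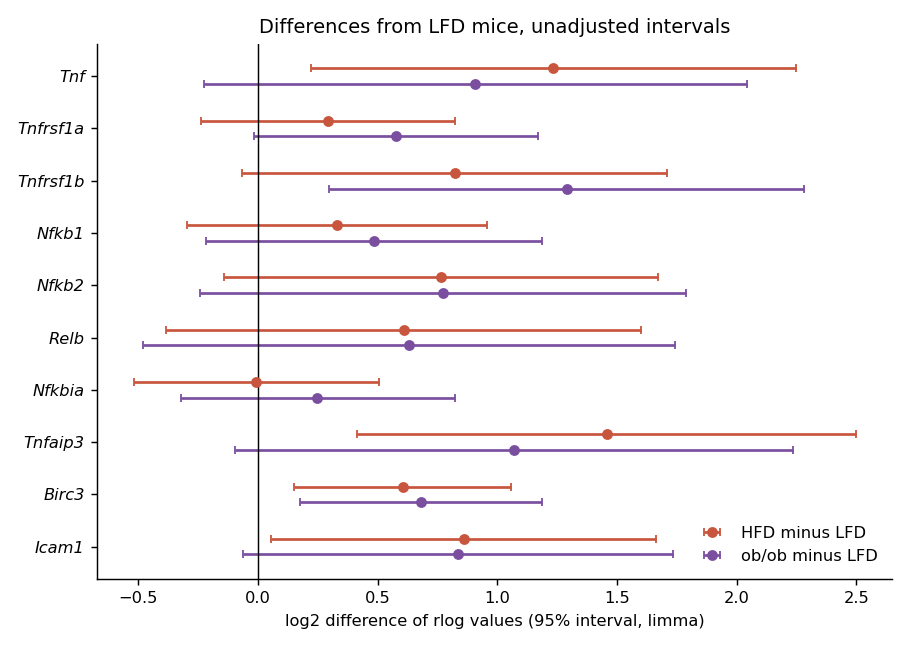
Log2 differences of rlog values (x axis) of HFD and ob/ob mice from LFD mice for each gene, with 95% intervals from limma that are not adjusted for the number of genes. In HFD the intervals of Tnf, Tnfaip3, Birc3 and Icam1, and in ob/ob those of Tnfrsf1b and Birc3, lie above 0.

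The mice did not contribute equally to these differences. HFD replicate 2 and ob/ob replicate 2 were above every LFD mouse for 10 of 10 genes, HFD replicate 3 for 9 and ob/ob replicate 1 for 8, but HFD replicate 1 for 3 and below every LFD mouse for another 3. Within LFD, replicate 3 was the lowest mouse for 8 genes and replicate 2 the highest for 7. LFD replicate 2 was also the mouse with the highest mean of 9 B and T lymphocyte markers, 5.81, where the other 7 mice had 3.76 to 4.53. Without HFD replicate 1, the adjusted p-value for HFD against LFD was under 0.05 for 7 of the 10 genes, as did 18.7% of all genes, and the adjusted p-value of Tnfaip3 was 0.0182. Nfkb1, Tnfrsf1a and Nfkbia were the 3 genes that did not pass. In the comparison of both models with LFD, 8 genes passed without the same mouse, beside 22.1% of all genes. Of the 10 genes, 9 had an unadjusted p-value under 0.05 in HFD without HFD replicate 1, where 19.8% of all genes were called higher in this way. This number was 2 without LFD replicate 1, LFD replicate 3 or HFD replicate 3 (7.66%, 6.52% and 6.89% of all genes) and 1 without HFD replicate 2 (6.04%), so that the share of all genes moved with it. In ob/ob against LFD it was 6 without HFD replicate 1 (15.4% of all genes), 3 without LFD replicate 2 or HFD replicate 3 (9.94% and 12.4%), and 1 without LFD replicate 3 or ob/ob replicate 2 (7.01% and 4.03%). For both models together it was 9 without HFD replicate 1 (21.2% of all genes), 2 without ob/ob replicate 2 (8.94%) and 1 without LFD replicate 3 (8.44%). Leaving out HFD replicate 3 and ob/ob replicate 2, which had the least acinar RNA, left 2 genes in HFD, 1 in ob/ob and 1 in both models together, beside 7.98%, 4.9% and 8.36% of all genes. A count of 1 of 10 is close to these shares.

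**Figure D3:**
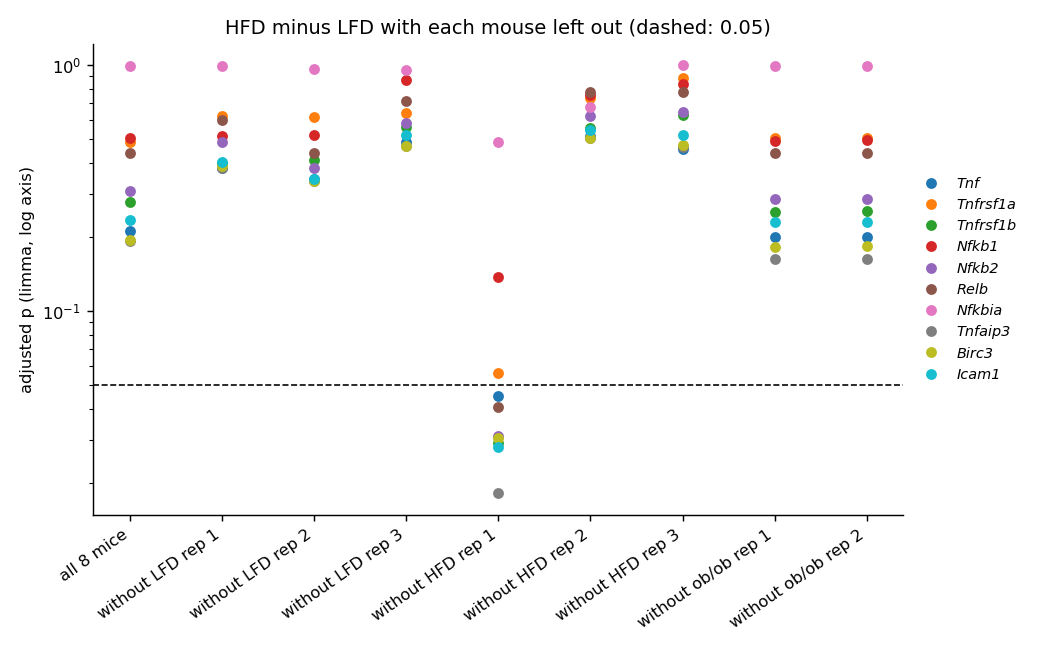
Adjusted p-values (limma, y axis on a log scale) of each gene for HFD against LFD, with all 8 mice and with each mouse left out in turn (x axis). The 7 genes below the dashed line at 0.05 are those of the fit without HFD replicate 1, and no gene is below it in the other fits.

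The genetic model was also set against the diet model. Between ob/ob and HFD, the log2 difference went from -0.39 for Tnfaip3 to 0.47 for Tnfrsf1b, and 0 genes had an unadjusted p-value under 0.05, where 2.28% of all genes were called higher and 1.63% lower. For Nfkb2 the difference was 0.01, with a 95% interval from -1.01 to 1.02, and for Tnf it was -0.33, with an interval from -1.46 to 0.81. With 3 and 2 mice, the intervals were too wide to show equal levels.

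Across mice, the 10 genes varied together. All 45 pairs of genes had a positive Pearson r over the 8 mice, from 0.464 to 0.984 with a median of 0.816. Nfkb2 followed the mean of the other 9 genes most closely (r = 0.974), and Nfkbia least (r = 0.687). Outside the lists used here, the 5 genes whose values were most like the mean z-score of the 10 genes over the 8 mice were Fxyd5 (r = 0.989), Il4ra (r = 0.988), Marcksl1 (r = 0.988), Actb (r = 0.985) and Tor4a (r = 0.985). Actb, the cytoskeletal actin often used as a reference gene, was at 13.2, 13.6 and 12.8 in LFD, 13.1, 14.4 and 14.8 in HFD, and 13.9 and 14.7 in ob/ob. Actb was within the LFD range in HFD replicate 1 and above it in the other obese mice, as were Tnfrsf1b, Nfkb1 and Icam1. These correlations describe the same 8 libraries, which also share their content of acinar and immune RNA.

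Each of the 10 genes was then set against 2 marker means over the 8 mice, that of the 20 acinar genes and that of 6 genes of all leukocytes (Ptprc, Coro1a, Laptm5, Cd53, Lcp1 and Cd52), which makes 20 relations. The leukocyte mean was 8.63, 9.21 and 8.17 in LFD, 9.14, 9.98 and 9.70 in HFD, and 9.64 and 10.1 in ob/ob, so that HFD replicate 1 was again within the LFD range. All 10 genes correlated positively with leukocyte markers, and 8 passed 0.05 after adjustment for the 20 relations (two-sided exact permutation test over all pairings), while all 10 correlated negatively with acinar markers, 7 of them passing 0.05. By rank, 7 and 8 passed. The share of all genes that would pass in this way was not computed, so the counts cannot be called particular to the 10 genes. Icam1 had the strongest relation to leukocyte markers, with r = 0.956 (exact permutation p = 0.000223, adjusted p = 0.00248) and Spearman rho = 0.929 (exact permutation p = 0.00223, adjusted p = 0.00893). Without LFD replicates 1 and 3, the mice farthest from the median, its r was 0.900. Tnf followed the same markers with r = 0.890 (exact permutation p = 0.00107, adjusted p = 0.00711) and rho = 0.952 (exact permutation p = 0.00114, adjusted p = 0.00761), and with r = 0.757 without those 2 mice. Tnfrsf1b had the strongest relation to acinar markers, with r = -0.926 (exact permutation p = 0.000248, adjusted p = 0.00248) and rho = -0.976 (exact permutation p = 0.000397, adjusted p = 0.00397), and r was -0.873 without HFD replicate 3 and ob/ob replicate 2. Nfkbia did not pass with either, at r = 0.612 (exact permutation p = 0.103, adjusted p = 0.113) and rho = 0.738 (exact permutation p = 0.0458, adjusted p = 0.0509) for leukocytes, and at r = -0.541 (exact permutation p = 0.169, adjusted p = 0.169) and rho = -0.571 (exact permutation p = 0.151, adjusted p = 0.151) for acinar cells. The pairings ran over all 8 mice without regard to group. A small p-value can therefore also come from a difference between lean and obese mice in both quantities. No correlation was computed within a single group of 2 or 3 mice. The fits with a marker mean as a covariate, given next, use the spread within all groups.

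**Figure D4:**
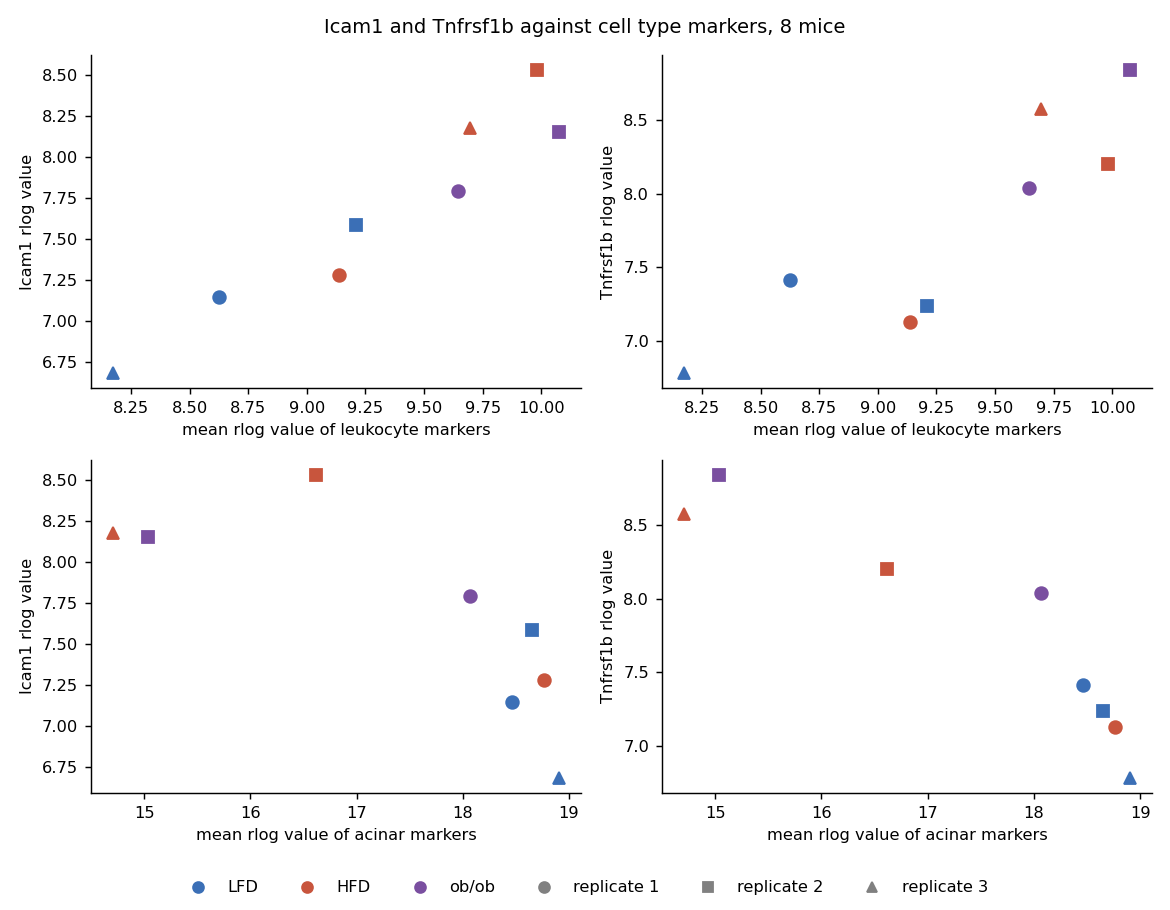
rlog values of Icam1 and Tnfrsf1b (y axes) in each of the 8 mice against the mean rlog value of 6 leukocyte markers (upper panels) and 20 acinar markers (lower panels), with colors for groups and symbols for replicates. HFD replicate 1 lies among the LFD mice in all panels, and the other obese mice lie toward high leukocyte values. Low acinar values belong to HFD replicates 2 and 3 and ob/ob replicate 2, while ob/ob replicate 1, at 18.1, lies just below the LFD mice.

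When the leukocyte mean was added to the model as a covariate, 4 of the 10 genes were higher in HFD and 3 in ob/ob, and 0 had an unadjusted p-value under 0.05. With the acinar mean as a covariate, Tnfaip3 in HFD (0.69, standard error 0.28, unadjusted p = 0.0324, adjusted p = 0.425 with limma) and Tnfrsf1b and Birc3 in ob/ob (0.58 and 0.55, unadjusted p = 0.0461 and 0.0446, adjusted p = 0.488 and 0.485 with limma) were the genes with an unadjusted p-value under 0.05. Among cell types, all 10 macrophage markers had a higher mean in ob/ob than in LFD and 9 of 10 in HFD, and the sum of their values on the linear scale was 10700 to 14700 in LFD, 18100 to 35300 in HFD and 27800 to 51000 in ob/ob. All 6 neutrophil markers in the table, of 9 listed (Ly6g, Ngp and Camp were not among its symbols), were higher in both models, with sums of 246 to 407, 720 to 2380 and 593 to 754. Fibroblast markers were higher for 7 of 8 genes in HFD and 8 of 8 in ob/ob, with sums of 11700 to 14200, 18000 to 41600 and 25100 to 55200. Of 9 lymphocyte markers, 2 were higher in HFD and 4 in ob/ob, with sums of 131 to 600, 160 to 227 and 208 to 217, and of 8 endothelial markers 6 and 4 were higher, with sums of 1450 to 1960, 1510 to 2340 and 1270 to 2200. Ductal markers were higher for 7 of 9 genes in HFD and 3 in ob/ob, with sums of 14100 to 18400, 19200 to 42500 and 21700 to 25200, and adipocyte markers for 3 of 6 in both, with sums of 1400 to 1680, 1450 to 1730 and 876 to 2470. No marker list was at 0 in any mouse, and the part of these cell types in the differences of the 10 genes was not tested. The 2 covariate fits are a description. The leukocyte mean was at most 9.21 in LFD and at least 9.64 in ob/ob, and the acinar mean at least 18.46 and at most 18.06. Group and marker mean can thus not be told apart between LFD and ob/ob. Between LFD and HFD, only HFD replicate 1 was within the LFD range of both means, and HFD replicates 2 and 3 were outside it. The covariate fits for HFD thus rest on the overlap of that 1 mouse with LFD. The share of all genes with an unadjusted p-value under 0.05 in these fits was not computed.

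The rest of the pathway was described with 5 lists of 87 genes, of which 85 were in the table. In HFD 66 of the 85 had a higher mean than in LFD, 29 with an unadjusted p-value under 0.05, and 2 were lower with such a p-value, beside 11.5% and 8.35% of all genes. In ob/ob 64 were higher, 16 with an unadjusted p-value under 0.05, and 2 lower, beside 11.6% and 7.18%. None had an adjusted p-value under 0.05 with limma, the smallest being 0.118 in HFD and 0.137 in ob/ob. Differences between the lists were not tested.

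NFkB targets other than Birc3 and Icam1 were higher in HFD for 29 of 30 genes, with a median difference of 1.08, 15 with an unadjusted p-value under 0.05 and 1 lower. In ob/ob 26 of 30 were higher, with a median of 0.78, 7 and 1 passing the unadjusted threshold. Of all genes, 11.5% were called higher and 8.35% lower in HFD, and 11.6% and 7.18% in ob/ob. Saa3, an acute-phase apolipoprotein, had the largest difference in both, 2.51 (standard error 0.29, unadjusted p = 1.57e-05, adjusted p = 0.118 with limma) in HFD and 2.17 (standard error 0.32, unadjusted p = 0.000109, adjusted p = 0.137 with limma) in ob/ob. It was at 6.01, 6.43 and 6.19 in LFD, 8.16, 9.33 and 8.67 in HFD, and 8.40 and 8.37 in ob/ob, so that HFD replicate 1 was well above LFD for this gene, unlike for most of the 10. The next were Il1a, the alarmin cytokine, in HFD (1.95, standard error 0.53) and Ccl2, the monocyte chemokine, in ob/ob (1.87, standard error 0.37). Il1a had 1.14 (standard error 0.60) in ob/ob, and Ccl2 had 1.16 (standard error 0.33) in HFD. Sod2, the mitochondrial superoxide dismutase, had lower means in both models, with differences of -0.62 (standard error 0.24, unadjusted p = 0.0301) and -0.68 (standard error 0.27, unadjusted p = 0.0329), with adjusted p-values of 0.222 and 0.244 with limma. Its values of 9.62, 9.66 and 9.88 in LFD were above those of both ob/ob mice, 9.16 and 8.92, and of HFD replicates 2 and 3, 8.86 and 8.80, but not all were above HFD replicate 1, 9.64. Ccl20, the chemokine that attracts CCR6-bearing lymphocytes, was the other target named on the lower side in ob/ob, with -0.52 (standard error 0.48). In HFD, Ccl20 had 0.50 (standard error 0.43).

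Of the 18 other TNF superfamily ligands and receptors in the table, of 20 listed, 15 were higher in HFD and 15 in ob/ob, with medians of 0.73 and 0.46. Unadjusted p-values under 0.05 were found for 7 higher and 0 lower in HFD, beside 11.5% and 8.35% of all genes. In ob/ob they were found for 5 higher and 1 lower, beside 11.6% and 7.18%. The decoy receptor of RANK ligand, Tnfrsf11b, had the largest HFD difference, 1.61 (standard error 0.30), with 5.55, 6.41 and 6.17 in LFD and 7.22, 8.001 and 7.75 in HFD. Its ob/ob values of 6.46 and 6.55 were only just above LFD, and ob/ob minus HFD was -1.15 (standard error 0.33, unadjusted p = 0.00745, adjusted p = 1 with limma). Tnfrsf9, the costimulatory receptor 4-1BB, had a difference of 1.60 (standard error 0.48) in HFD and of 1.20 (standard error 0.53) in ob/ob. In ob/ob, Tnfrsf11a, which encodes RANK, and Tnfsf14, the ligand LIGHT, came first, with 1.27 (standard error 0.46) and 1.202 (standard error 0.37). In HFD these 2 had 0.98 (standard error 0.41) and 0.95 (standard error 0.33). Negative differences were found for Tnfsf15 (-0.34 in HFD and -0.85 in ob/ob), Tnfsf12 (-0.30 in HFD, but 0.19 in ob/ob) and Tnfsf10 (-0.30 in ob/ob, but 0.05 in HFD). They encode the ligands TL1A, TWEAK and TRAIL.

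The 24 genes of TNF release, receptor-proximal adaptors and kinases had medians near that of all genes, with 12 higher and 12 lower in both comparisons and medians of 0.01 and 0.02. Adam17, the protease that frees TNF from the membrane, was at 8.45, 8.75 and 8.68 in LFD, 9.03, 9.55 and 9.44 in HFD, and 9.30 and 9.89 in ob/ob. Every obese mouse was above every LFD mouse for Adam17, with differences of 0.72 (standard error 0.22, unadjusted p = 0.00967, adjusted p = 0.186 with limma) and 0.97 (standard error 0.24, unadjusted p = 0.00338, adjusted p = 0.181 with limma). The adaptor Traf1, itself an NFkB target, had 0.80 (standard error 0.37) and 1.14 (standard error 0.41). On the other side, Tank, an adaptor of TBK1, had -0.56 (standard error 0.15) in HFD and -0.31 (standard error 0.17) in ob/ob. Rnf31, the catalytic subunit of the linear ubiquitin ligase, had -0.48 (standard error 0.28) in HFD and -0.69 (standard error 0.31) in ob/ob. The kinase Map3k7 (TAK1) had -0.40 (standard error 0.20) in HFD and -0.38 (standard error 0.22) in ob/ob.

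The 2 subunits outside the 10 genes had differences of unlike size, which were not tested against each other. Rel, the c-Rel subunit of lymphoid and myeloid cells, was at 5.46, 5.95 and 4.95 in LFD, 6.11, 6.47 and 7.05 in HFD, and 6.09 and 6.66 in ob/ob, with no overlap between obese and LFD mice and differences of 1.10 (standard error 0.36, adjusted p = 0.194 with limma) and 0.92 (standard error 0.40, adjusted p = 0.262 with limma). Rela, which encodes the p65 subunit of the main dimer, was between 7.91 and 8.02 in LFD, 7.95 and 8.26 in HFD, and 7.80 and 8.12 in ob/ob, and differed by 0.13 (standard error 0.17) and 0.01 (standard error 0.20). Of 11 other inhibitors and IkB proteins, 8 were higher in HFD and 9 in ob/ob, with medians of 0.54 and 0.38, and 4 and 1 of them had an unadjusted p-value under 0.05. Of all genes, 11.5% in HFD and 11.6% in ob/ob were called higher in this way, and 1 of 11 is close to the latter share. Tnip3, a partner of A20, was first in HFD with 1.48 (standard error 0.41), where its values of 6.71, 8.09 and 7.83 were above the LFD values of 5.70, 6.68 and 5.81, while ob/ob mice were at 6.24 and 6.63. For Tnip3, ob/ob minus HFD was -1.11 (standard error 0.46, unadjusted p = 0.0400, adjusted p = 1 with limma). Bcl3, an atypical IkB protein, had 1.00 (standard error 0.43) in HFD and 0.72 (standard error 0.48) in ob/ob. Nfkbid and Nfkbie, 2 further IkB proteins, had 0.97 (standard error 0.34) and 0.85 (standard error 0.53) in ob/ob. In HFD they had 0.73 (standard error 0.30) and 0.605 (standard error 0.48). Nfkbib, the IkB-beta inhibitor, was lower than in every LFD mouse in all 5 obese mice, with -0.32 (standard error 0.22) and -0.48 (standard error 0.25) and adjusted p-values of 0.428 and 0.312 with limma, and Otulin, which cuts linear ubiquitin chains, had -0.19 (standard error 0.18) and -0.13 (standard error 0.21).

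**Figure D5:**
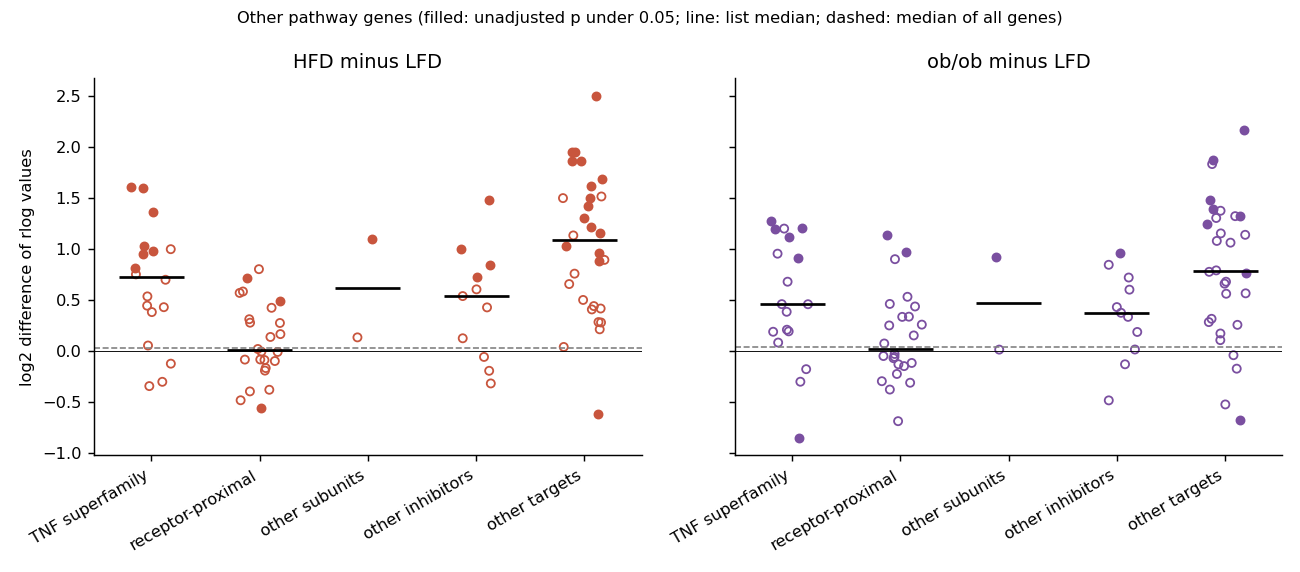
Log2 differences from LFD mice (y axis) of the 85 other pathway genes by list, for HFD (left) and ob/ob (right), with filled points for unadjusted p-values under 0.05, lines for the median of a list and a dashed line for the median of all genes. Targets have the highest median in both panels, 1.08 and 0.78, and receptor-proximal genes lie around 0.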

How the data were processed

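Pancreas RNA of 8 mice was grouped by the diet or genotype in the sample labels. The authors quantified reads with Salmon 0.11.3 on Gencode M18 (GRCm38.p6), summarized transcripts per gene, and deposited rlog values of DESeq2 1.22.2, on a log2 scale, after a filter on genes that is not given in the sources used here. Salmon divides reads among similar transcripts by probability. Counts and depth were not used, so no counting interval is given.

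Differences were tested over all 15047 genes with limma 3.58.1 in R 4.3.3, with 1 mean per group, all 8 mice, an empirical Bayes variance with a trend, and Benjamini-Hochberg adjustment. The limma p-values set a group difference against the spread between mice within groups, pooled over all groups. Relations to markers were tested over all 40320 pairings in Python 3.11.15 with NumPy 2.4.6. No sequencing batch is given. The limma and permutation steps were tested on simulated data. The 10 genes and all lists were chosen with earlier results of these data known, and the lists were written by hand. Of other pathway genes, the 2 largest differences each way per list and comparison are named, Actb among the most alike genes was described further after its values were seen, and marker lists are given by counts. Alternatives were other variance models, scalings, filters, weights and covariates, a replicate block, and leaving out mice. Sequences are from RefSeq and coordinates from Gencode M21, both on GRCm38.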

Additional observations from a re-analysis of the deposited data

How the results depend on the processing

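With 3, 3 and 2 mice and no read depth, precision rests on the spread between mice. For the fits below other than those that leave out mice, the share of all genes with an unadjusted p-value under 0.05 was not computed. Their unadjusted counts among the 10 genes and the other pathway genes thus lack that background. Centring each mouse on its median moved the median of all genes by -0.09 to -0.01 in the log2 differences. Without a trend in the variance, with a filter at a mean rlog of 5 or with centring, no direction of the 10 genes turned. Quantile normalization gave Nfkbia 0.019 in HFD against LFD, and Nfkb2 -0.0086 and Relb -0.0037 in ob/ob against HFD.

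With only the groups compared in the fit, 1 gene of all (Rnu3b1, a small nucleolar RNA gene, named after its values were seen) passed the adjusted threshold in HFD and 38 in ob/ob, where 6 of the 10 genes and 28 other pathway genes had an unadjusted p-value under 0.05. With array weights, which were 0.273 for HFD replicate 1, the lowest, and 9.36 for HFD replicate 2, the highest, so that the HFD mean rested mostly on the latter, 6656 genes and 8 of the 10 passed the adjusted threshold in HFD, and 4286 and 7 in both models together. Unadjusted, 10 and 9 of the 10 and 61 and 51 other pathway genes passed there, 4 of the 10 in ob/ob against LFD, and 17 other pathway genes in ob/ob against HFD, where 3 of the 10 were positive. Weights turned Nfkbia in HFD to 0.354 and, in ob/ob against HFD, Nfkb2 to -0.376, Relb to -0.475, Nfkbia to -0.121 and Birc3 to -0.045. The cause was not tested.

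With the acinar mean as a covariate, 1 of the 10 genes passed unadjusted in HFD and 1 in both models together, with 17, 7, 7 and 12 other pathway genes in HFD, ob/ob, ob/ob against HFD and both models. In these fits 1 gene of all passed the adjusted threshold in ob/ob and in both models (Serpina7) and 1 in ob/ob against HFD (Scg2), both named after their values were seen. Differences turned to -0.063 for Nfkb1 and -0.022 for Relb in HFD, -0.046 for Relb in ob/ob, -0.037 for Nfkb2 and -0.024 for Relb in ob/ob against HFD, and -0.00013 for Nfkb1, -0.034 for Relb and -0.090 for Nfkbia in both models. With the leukocyte mean, 0 of the 10 passed unadjusted, 4, 3, 3 and 3 were positive, and 4, 4, 12 and 3 other pathway genes passed. Differences in HFD turned to -0.041 for Tnfrsf1b, -0.351 for Nfkb1, -0.301 for Nfkb2, -0.579 for Relb and -0.163 for Icam1. In ob/ob they turned to -0.539 for Tnf, -0.382 for Nfkb1, -0.581 for Nfkb2, -0.879 for Relb, -0.341 for Nfkbia, -0.469 for Tnfaip3 and -0.466 for Icam1. In ob/ob against HFD they turned to -0.031 for Nfkb1, -0.281 for Nfkb2, -0.300 for Relb and -0.010 for Birc3. In both models they turned to -0.221 for Tnf, -0.367 for Nfkb1, -0.441 for Nfkb2, -0.729 for Relb, -0.406 for Nfkbia, -0.110 for Tnfaip3 and -0.315 for Icam1.

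Leaving out HFD replicate 3 and ob/ob replicate 2, chosen after seeing the data, left 1 gene of all, Rnu3b1, past the adjusted threshold in HFD, in ob/ob against HFD and in both models. Of the 10 genes, 2, 1 and 1 passed unadjusted in HFD, ob/ob and both models, with 8, 2 and 19 other pathway genes in ob/ob, ob/ob against HFD and both models, and Nfkb2 was at -0.180 and Relb at -0.088 in ob/ob against HFD. Whether replicate numbers pair the mice could not be settled. Deviations of same-numbered mice from their group means correlated from -0.281 to 0.592, with 4 of 7 pairs above 0.1. The values were 0.592 for HFD and ob/ob replicates 1 and 0.303 for replicates 2. Of 8 mice, 3 correlated best with their own number. Deviations within a group of 2 or 3 mice add to 0, so these values cannot exclude a pairing. With a replicate block, 4 of the 10 genes passed unadjusted in ob/ob against LFD, and no adjusted call of the 10 changed.

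With each mouse left out in turn, the number of all genes past the adjusted threshold was 0 to 2812 in HFD against LFD, 0 to 89 in ob/ob against LFD, 0 to 1 in ob/ob against HFD, 0 to 3326 in both models against LFD, the highest being without HFD replicate 1 except in ob/ob against HFD, where it was without ob/ob replicate 2. Of the 10 genes it was 0 to 7 in HFD against LFD, 0 in ob/ob against LFD, 0 in ob/ob against HFD, 0 to 8 in both models against LFD. Unadjusted, it was 1 to 9 in HFD against LFD, 1 to 6 in ob/ob against LFD, 0 in ob/ob against HFD, 1 to 9 in both models against LFD, and for other pathway genes 16 to 45 in HFD against LFD, 6 to 31 in ob/ob against LFD, 2 to 18 in ob/ob against HFD, 15 to 50 in both models against LFD. In the fits that kept at least 2 mice per group, 6.04% to 19.8% of all genes were called higher unadjusted in HFD against LFD. This share was 7.01% to 15.4% in ob/ob against LFD, 1.84% to 2.39% in ob/ob against HFD, and 8.44% to 21.2% in both models. The share called lower was not computed in the fits that leave out mice. The number of positive differences among the 10 genes was 9 to 10 in HFD against LFD, 10 in ob/ob against LFD, 3 to 9 in ob/ob against HFD, 10 in both models against LFD. Nfkbia went from -0.217 to 0.203 in HFD against LFD. In ob/ob against HFD the ranges were -0.645 to 0.086 for Tnf, -0.107 to 0.416 for Nfkb1, -0.429 to 0.425 for Nfkb2, -0.478 to 0.362 for Relb, -0.964 to 0.186 for Tnfaip3, -0.081 to 0.169 for Birc3, -0.382 to 0.242 for Icam1. An ob/ob group left with 1 mouse was assumed to vary like the others.

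With ranks in place of Pearson correlation, Tnf passed with acinar markers and Birc3 did not with leukocyte markers, and after centring Tnfrsf1a did not with acinar markers. The looser promoter pattern gave 8 genes.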
